A study of Mus musculus with 8 samples.

Results

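Regulatory subunits of the serine/threonine phosphatases PP1, PP2A, calcineurin (PP3), PP4 and PP6 were followed in the mouse dorsomedial hypothalamus (DMH) by RNA-seq. They were chosen by symbol, as every gene whose name starts with Ppp, a family number from 1 to 6, r and a digit. Of 75 matching symbols, 3 were set aside by name (Ppp1r17 itself and the PP2A scaffold genes Ppp2r1a and Ppp2r1b) and 7 as numbered pseudogenes of Ppp1r2. That left 65 of the 55487 genes in the files, of which 61 were protein coding, 2 were antisense genes (Ppp1r18os and Ppp2r2cos) and 2 were pseudogenes (Ppp4r1l-ps and Ppp4r3c-ps). By symbol 40 belonged to PP1, 13 to PP2A, 2 to calcineurin, 7 to PP4 and 3 to PP6.

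The 2 groups were 4 libraries from DMH given a hairpin against Ppp1r17 (shPpp1r17) and 4 libraries from DMH given a hairpin against firefly luciferase (shfLuc), a control with no mouse target. The titles of all 8 libraries begin with the letters LMD, which the titles do not spell out. Strain, age, sex, the way the hairpins were delivered and the interval to tissue collection were not given in the labels. The labels do not say whether libraries of a group came from separate animals, so p-values reflect how these 8 libraries scatter, and part of that scatter may be technical. The depth was 23070147 to 33907984 estimated reads per library.

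PP1 and PP2A each have very few catalytic subunits, which by themselves act on many phosphoproteins. Regulatory subunits bind them and set where they sit, which proteins they dephosphorylate and when they are held inactive. Calcineurin, the calcium-activated phosphatase, has a catalytic and a calcium-binding regulatory subunit, while PP4 and PP6 pair a catalytic subunit related to that of PP2A with their own partners. Ppp1r17, known as G-substrate, is an inhibitor protein of such phosphatases that becomes active when cGMP-dependent protein kinase phosphorylates it. The question of the comparison was therefore whether the transcripts of its fellow regulators moved when Ppp1r17 was depleted.

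The targeted gene was uneven across the shPpp1r17 libraries. Ppp1r17 had 87.7, 2.07, 3.10 and 87.2 CPM (read counts scaled to library size with TMM factors) in shPpp1r17 libraries 1 to 4, against 147, 161, 161 and 171 CPM in shfLuc libraries 1 to 4. Every shPpp1r17 value was under every shfLuc value, but libraries 2 and 3 were far lower than libraries 1 and 4 (log2 fold change -1.83, SE 0.80, adjusted p = 0.197 in edgeR's quasi-likelihood test). On the leading principal component, which held 32.3% of the variance, shPpp1r17 libraries 1 to 4 had scores of -16.5, -46.9, -46 and -2.45. The shfLuc libraries were spread as well, with scores from 8.08 in library 1 to 43.6 in library 4. Libraries 2 and 3 of shPpp1r17 also had the highest summed oligodendrocyte and microglial markers. The 8 oligodendrocyte markers summed to 1406, 2154, 2300.0 and 1305 CPM in shPpp1r17 libraries, against 1265 to 1315 CPM in shfLuc libraries, and 3 of the 8 were called higher. The 8 microglial and macrophage markers summed to 268 to 422 CPM in shPpp1r17 libraries, against 197 to 273 CPM in shfLuc libraries, with 3 called higher. All 5 blood cell markers were called higher, and 1 of 6 endothelial, 2 of 8 astrocyte and 1 of 8 neuronal markers were called higher, with 1 astrocyte, 3 neuronal and 1 of 5 oligodendrocyte precursor markers called lower. None of 6 mural, 8 striatal-type or 8 DMH markers passed the edgeR test (3, 1 and 3 at an unadjusted p under 0.05; DESeq2 called 1, 0 and 0), and the DMH markers Gpr50 and Brs3 were detected in every library. Gpr50 had 47.9 to 63.6 CPM in shPpp1r17 libraries, against 42.1 to 54.4 CPM in shfLuc libraries. Brs3 had 34.1, 7.26, 8.47 and 29.4 CPM in shPpp1r17 libraries, against 39.3, 43.2, 51.1 and 46.1 CPM in shfLuc libraries (log2 fold change -1.18, SE 0.39, edgeR adjusted p = 0.091). Its groups did not overlap, and it was lowest in libraries 2 and 3, as Ppp1r17 was. Over all 8 libraries, Pmch, Grp and Cck were also lowest in shPpp1r17 libraries 2 and 3, whereas Gpr50, Lepr and Prlhr were not. Within shPpp1r17 alone, Gpr50 was lowest in libraries 2 and 3 (47.9 and 48.2 CPM, against 49.7 and 63.6 CPM). Lepr was lowest in library 3 (2.59 CPM) but not in library 2 (4.41 CPM). The DMH list, which includes Ppp1r17 itself, had a median log2 fold change of -0.40, with 5 of 8 below 0. The labels do not say whether the dissected tissue differed between libraries. The part of these marker differences in the results below was not tested. In bulk tissue, fewer cells of a type and less RNA per cell cannot be told apart.

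The family was broadly transcribed in the DMH. Levels between genes are given as the deposited TPM (scaled to transcript length and library). In shfLuc libraries 34 members averaged 10 TPM or more, 13 averaged under 1 TPM, and 4 (Ppp1r18os, Ppp1r1c, Ppp1r3a and Ppp4r3c-ps) had 0 reads in all 8 libraries. The filter on low counts kept 56 members and removed 9, namely those 4 with Ppp1r14a, Ppp1r14d, Ppp1r27, Ppp1r3g and Ppp2r2cos. Ppp1r14a, an inhibitor of the myosin phosphatase of smooth muscle, had 3 to 9 reads in shPpp1r17 libraries and 2 to 8 reads in shfLuc libraries. The tested members had a median shfLuc level of 13.4 TPM, against 7.64 TPM for all 17339 tested genes.

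Ppp1r11, a small heat-stable PP1 inhibitor that binds the catalytic subunit as it is assembled, had the highest level by a wide margin, with 497 ± 18.7 TPM in shPpp1r17 libraries and 498 ± 34.6 TPM in shfLuc libraries (SD, n = 4 each). In shfLuc libraries it was followed by Ppp2r5c at 112 TPM, Ppp1r12a at 110.1 TPM, Ppp2r2b at 93.0 TPM, Ppp3r1 at 68.4 TPM, Ppp6r2 at 61.9 TPM and Ppp1r7 at 50.9 TPM. Then came Ppp2r5d at 45.4 TPM, Ppp1r9a at 44.8 TPM, Ppp2r2d at 43.7 TPM, Ppp1r16b at 42.1 TPM, Ppp2r2c at 38.7 TPM, Ppp1r21 at 35.5 TPM, Ppp1r12c at 30.5 TPM and Ppp2r2a at 29.9 TPM. Neighbours in this order had shfLuc ranges that lay apart for Ppp1r11 over Ppp2r5c, Ppp2r2b over Ppp3r1, and Ppp1r21 over Ppp1r12c, and overlapped for the others. The leading places thus went to an inhibitor, a myosin phosphatase subunit, PP2A substrate-choosing subunits, the calcineurin regulatory subunit and a PP6 subunit.

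**Figure D1:**
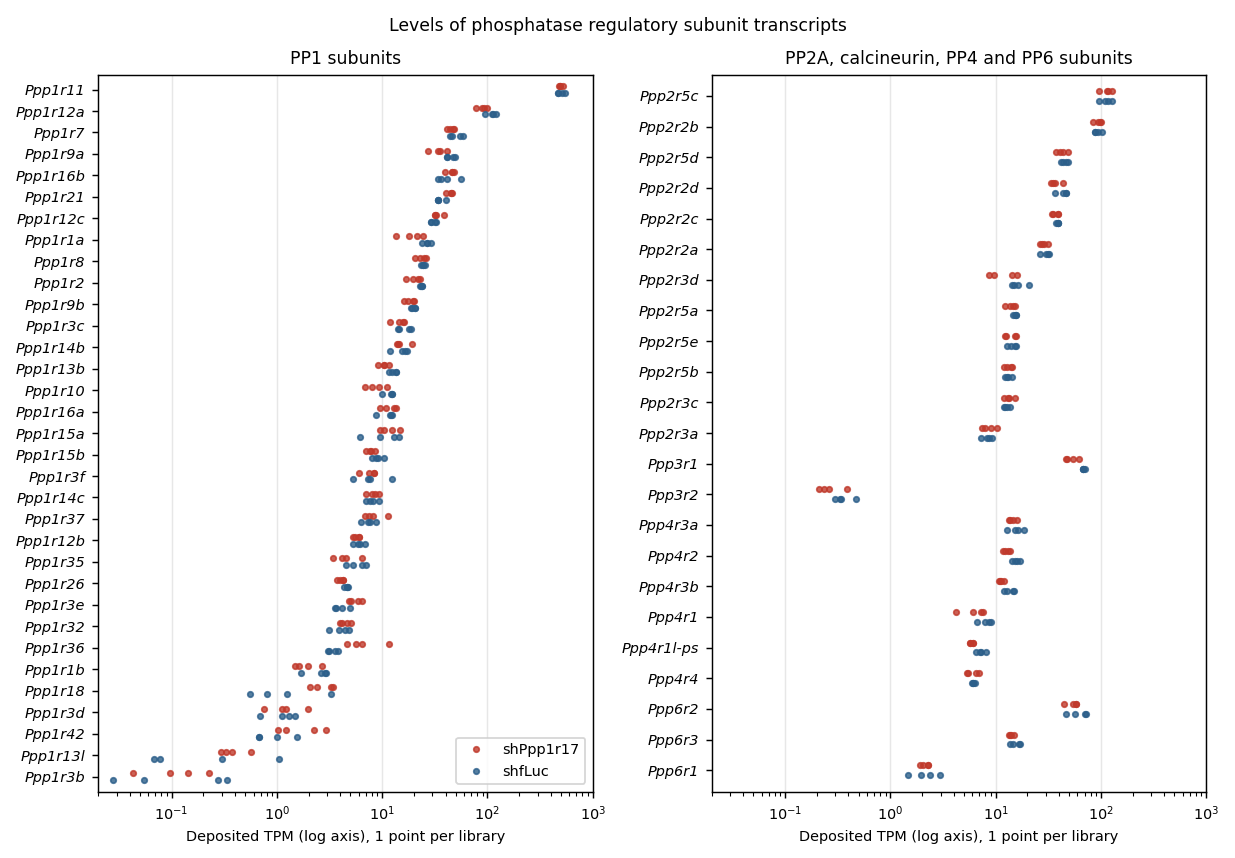
Deposited TPM on a log axis for the 56 tested members, with PP1 subunits on the left and PP2A, calcineurin, PP4 and PP6 subunits on the right. Each point is 1 library, with shPpp1r17 points above shfLuc points. Ppp1r11 lies near 497 TPM in both groups, and for most members the points of the groups lie together.

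Summed over all members, the level was 1625 ± 25 TPM in shPpp1r17 libraries and 1710.2 ± 70.7 TPM in shfLuc libraries (SD, n = 4 each), with ranges of 1593 to 1654 TPM and 1607 to 1765 TPM that overlapped. PP1 inhibitors, mostly Ppp1r11, made up 34.6% of it in shPpp1r17 libraries and 33.6% in shfLuc libraries. PP2A B subunits summed to 197 ± 3.60 TPM in shPpp1r17 libraries and 205 ± 12.7 TPM in shfLuc libraries. PP2A B prime subunits summed to 186 to 211 TPM in shPpp1r17 libraries and 183 to 216 TPM in shfLuc libraries. The myosin phosphatase family summed to 176 to 193 TPM in shPpp1r17 libraries and 179 to 217 TPM in shfLuc libraries. The groups of libraries overlapped for each of these sums.

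The TPM sums of 3 of 14 groups of subunits did not overlap between shPpp1r17 and shfLuc libraries, and all 3 were lower in shPpp1r17. No matching share was computed for sums of other genes. By CPM of single genes, the groups did not overlap for 13.9% of all tested genes. Calcineurin B subunits, almost entirely Ppp3r1, summed to 46.9 to 61.8 TPM in shPpp1r17 libraries, against 67.5 to 70.8 TPM in shfLuc libraries. The 5 PP4 subunits summed to 48.2 to 53.5 TPM in shPpp1r17 libraries, against 56.5 to 60.6 TPM in shfLuc libraries. The 2 ASPP family members, PP1-binding partners of p53, summed to 9.49 to 11.7 TPM in shPpp1r17 libraries, against 11.8 to 13.6 TPM in shfLuc libraries. The median of all tested genes was itself 0.06 lower in shPpp1r17 on the log2(TPM + 1) scale, and none of these 9 genes passed edgeR's test on counts. By CPM, the groups overlapped for Ppp3r1 and for Ppp1r13b, the main part of the ASPP sum. Ppp3r1 passed in DESeq2 (log2 fold change -0.29, adjusted p = 0.0442) and on log2(TPM + 1) in limma (-0.38, adjusted p = 0.0408).

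**Figure D2:**
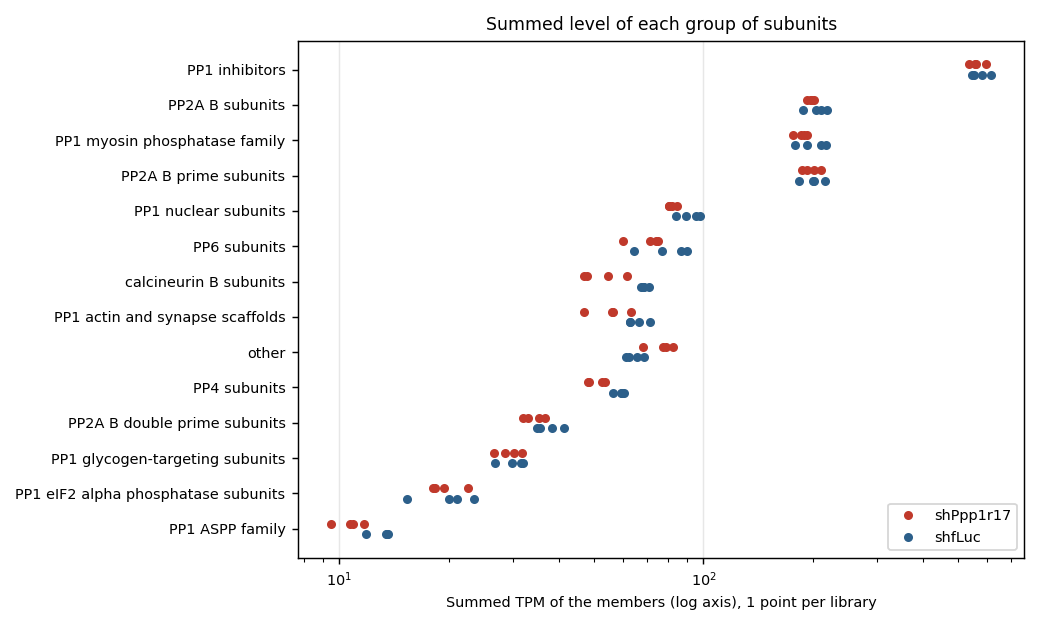
Summed TPM on a log axis of the members in each of 14 groups of subunits, 1 point per library, shPpp1r17 above shfLuc. The calcineurin B, PP4 and ASPP sums lie lower in all 4 shPpp1r17 libraries, and the groups of libraries overlap in the other rows.

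Few regulatory subunits changed between shPpp1r17 and shfLuc. Of the 56 tested members, 1 was called higher (Ppp1r36) and 1 lower (Ppp1r10) at an adjusted p under 0.05 in edgeR's quasi-likelihood test, which is 3.57% of them. Over all 17339 tested genes 6.06% were called, 3.39% higher and 2.66% lower, so the members' share was no larger than that of genes at large. At an unadjusted p under 0.05 there were 10 members (17.9%), against 22.6% of all genes. The CPM of the groups did not overlap for 6 members (10.7%), 3 higher and 3 lower, against 13.9% of all genes.

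The sizes of the differences were small as well. Log2 fold changes ran from -0.51 to 1.13 with 27 above 0 and 29 below 0, and their median was -0.01, against 0.00 for all genes. The median absolute log2 fold change was 0.15 in the members, against 0.19 over all genes, with 41 members within 0.25 of no change and 6 beyond 0.5. Members varied less between libraries of a group than genes at large. The median within-group SD of log2(CPM + 0.5) was 0.157 in shPpp1r17 libraries and 0.122 in shfLuc libraries for members. For all genes it was 0.204 and 0.174 in the same libraries. Members also had a higher median shfLuc level (13.4 TPM, against 7.64 TPM), and genes of matched level were not compared. The count of 2 depended on single libraries: it was 0 without shPpp1r17 library 2, shfLuc library 2 or shfLuc library 3, it was 1 without shPpp1r17 library 3 or shfLuc library 4, and it was 4 without shPpp1r17 library 1. Without shfLuc library 2 or 3, edgeR called 0 of all genes. DESeq2 called 5 members (Ppp1r10, Ppp1r36, Ppp1r21, Ppp1r9a and Ppp3r1), where 11.1% of all genes were called. Without shPpp1r17 libraries 2 and 3 edgeR called 0 members, where 0.205% of all genes were called. Without libraries 1 and 4 it called 7, those 5 with Ppp1r1a and Ppp2r5c, where 14.8% of all genes were called.

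**Figure D3:**
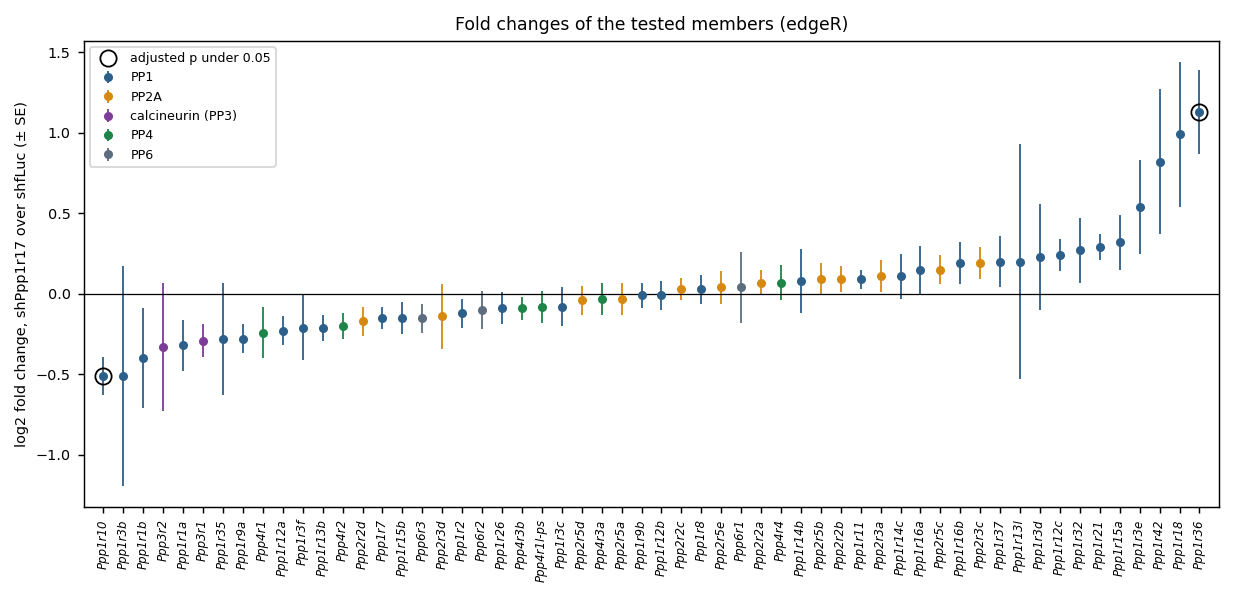
Log2 fold change of shPpp1r17 over shfLuc with its SE for the 56 tested members, in rising order and coloured by phosphatase. Circles mark Ppp1r10 at -0.51 and Ppp1r36 at 1.13, the members past the threshold; 41 members lie within 0.25 of 0.

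Among nuclear PP1 subunits, Ppp1r10 fell. It encodes PNUTS, which holds PP1 on chromatin, where it acts on RNA polymerase II and transcription termination (ENSMUSG00000039220, GRCm38 chr17:35916434-35932283, plus strand). Ppp1r10 had 20.1, 15.4, 21.1 and 16.4 CPM in shPpp1r17 libraries, against 26.6, 26.4, 28.0 and 23.1 CPM in shfLuc libraries. Every shPpp1r17 library lay below every shfLuc library, and libraries 2 and 4 were the lowest. The means were 18.3 ± 2.76 CPM in shPpp1r17 libraries and 26.0 ± 2.06 CPM in shfLuc libraries (SD, n = 4 each; log2 fold change -0.51, SE 0.12, edgeR adjusted p = 0.0269). Over the alternatives run, the log2 fold change kept between -0.60 and -0.38 and passed the threshold in 15 of 20. It did not pass without shPpp1r17 library 2 (adjusted p = 0.078), shfLuc library 2 (0.0811) or shfLuc library 3 (0.0907), without shPpp1r17 libraries 2 and 3 together (0.129), or on log2(TPM + 1) with limma (0.145).

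The other nuclear subunits did not pass. Ppp1r7 (SDS22), which binds PP1 early in its assembly, had 84.1, 93.4, 80.4 and 81.3 CPM in shPpp1r17 libraries, against 88.7, 92.8, 94.8 and 99.0 CPM in shfLuc libraries (log2 fold change -0.15, edgeR adjusted p = 0.269). Ppp1r8, a nuclear inhibitor and splicing factor partner of PP1, had a log2 fold change of 0.03, and Ppp1r26 one of -0.09.

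Ppp1r36, a PP1-binding protein with little known of it in brain, rose (ENSMUSG00000052221, GRCm38 chr12:76417538-76439492, plus strand). It was a low-level transcript, with 155, 316, 189 and 169 reads in shPpp1r17 libraries, against 77, 84, 88 and 80 reads in shfLuc libraries. In CPM these were 6.06, 12.3, 6.90 and 4.97 in shPpp1r17 libraries, against 3.33, 3.58, 3.76 and 3.15 in shfLuc libraries. The groups did not overlap, and shPpp1r17 library 2 was well above the rest. The means were 7.57 ± 3.28 CPM in shPpp1r17 libraries and 3.45 ± 0.271 CPM in shfLuc libraries (SD, n = 4 each; 2.19-fold, log2 fold change 1.13, SE 0.26, edgeR adjusted p = 0.0276). The threshold was passed in 12 of 20 alternatives. It was not passed without shPpp1r17 library 2 (log2 fold change 0.79, adjusted p = 0.0707), without shPpp1r17 library 3 (1.16, 0.0696), without shfLuc library 2 (1.15, 0.081), 3 (1.17, 0.0771) or 4 (1.08, 0.0836), or without shPpp1r17 libraries 2 and 3 together (0.67, 0.246). Limma on voom values gave 1.01 (adjusted p = 0.0623), and limma on log2(TPM + 1) gave 0.81 (0.061).

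Genes of motile cilia, which ependymal cells of the ventricle wall carry, were examined beside Ppp1r36. Foxj1, the master factor of motile cilia, had 3.01, 4.06, 1.53 and 2.0 CPM in shPpp1r17 libraries, against 1.77, 2.0, 1.20 and 0.472 CPM in shfLuc libraries (edgeR adjusted p = 0.205). Ccdc153 had 11, 16.6, 6.14 and 5.50 CPM in shPpp1r17 libraries, against 7.17, 8.35, 5.94 and 3.85 CPM in shfLuc libraries (0.282). Tmem212 had 10.7, 13.7, 3.58 and 4.67 CPM in shPpp1r17 libraries, against 4.54, 6.26, 4.14 and 3.15 CPM in shfLuc libraries (0.20). All 3 were highest in shPpp1r17 library 2, as Ppp1r36 was, and none of the 3 passed the test. In shPpp1r17 libraries 1 and 2 all 3 lay above their shfLuc ranges. In libraries 3 and 4 they lay within those ranges, with Foxj1 at the upper edge (2.0 CPM) in library 4. Ppp1r36 lay above its shfLuc range in every shPpp1r17 library. The 3 belong to a list of 8 ependymal, tanycyte and choroid plexus markers. Of its others, Col23a1 was also highest in shPpp1r17 library 2. Rax and Ttr were highest in shPpp1r17 library 1, Kl in shPpp1r17 library 4 and Clic6 in shfLuc library 4. The full list summed to 49.9 to 88.8 CPM in shPpp1r17 libraries and 52.9 to 71.2 CPM in shfLuc libraries. Of its 7 tested genes 0 were called higher and 1 lower (Clic6), 5 had an unadjusted p under 0.05 in either direction, and no marker was at 0 in any library. Library 2 of shPpp1r17 was not highest for ependymal genes alone. Summed neuronal, microglial, mural and blood cell markers were also highest there (4813, 422, 128 and 1231 CPM). Oligodendrocyte and endothelial sums were highest in shPpp1r17 library 3, and astrocyte, oligodendrocyte precursor, striatal-type and DMH sums in shfLuc libraries. Gfap, of astrocytes, had 119.5, 341, 246 and 110.4 CPM in shPpp1r17 libraries, against 40.7 to 85.9 CPM in shfLuc libraries. The part of these markers in the Ppp1r36 result was not tested. Ppp1r42, a PP1 regulator found at centrosomes, had 0.742, 0.859, 1.5 and 2.59 CPM in shPpp1r17 libraries, against 0.907, 0.597, 1.07 and 0.669 CPM in shfLuc libraries (log2 fold change 0.82, SE 0.45, adjusted p = 0.307). It was highest in shPpp1r17 library 4 rather than library 2.

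**Figure D4:**
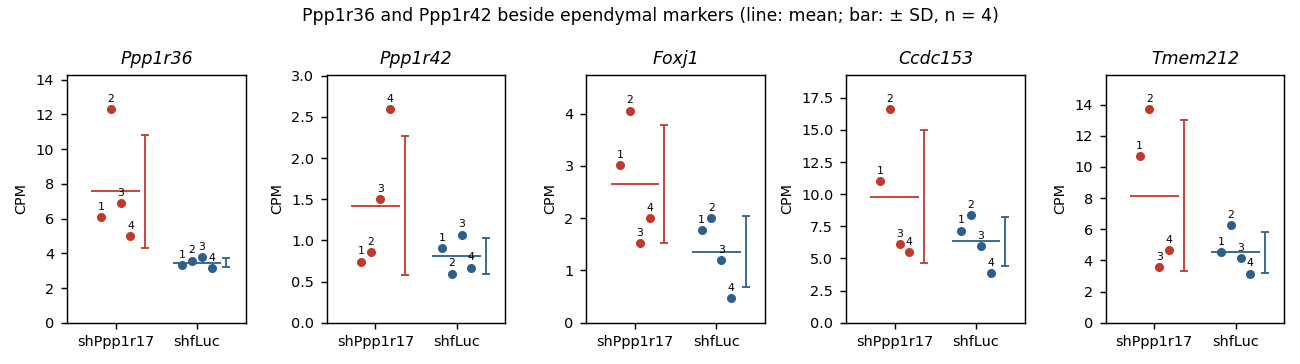
CPM of Ppp1r36, Ppp1r42 and the ependymal markers Foxj1, Ccdc153 and Tmem212, with shPpp1r17 left of shfLuc and libraries numbered 1 to 4. Lines are means and bars are SD (n = 4); shPpp1r17 library 2 is highest for Ppp1r36 (12.3 CPM) and for the 3 markers, but not for Ppp1r42.

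Ppp1r21, which in human cells is part of a complex that carries mRNA on early endosomes, lay just outside the threshold (GRCm38 chr17:88530118-88588367, plus strand). It had 49.1, 56.2, 56.4 and 52.5 CPM in shPpp1r17 libraries, against 45.0, 40.9, 41.6 and 48.1 CPM in shfLuc libraries. The groups did not overlap (log2 fold change 0.29, SE 0.08, edgeR adjusted p = 0.0579), and it passed in 4 of 20 alternatives.

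Subunits of the myosin phosphatase family, which bring PP1 to myosin and the cytoskeleton, had fold changes of either sign, and 0 of 5 passed in edgeR (2 at an unadjusted p under 0.05, and 0 in DESeq2). Ppp1r12a (MYPT1) had 292, 262, 228 and 257 CPM in shPpp1r17 libraries, against 267, 292, 324 and 331 CPM in shfLuc libraries (log2 fold change -0.23, SE 0.09, edgeR adjusted p = 0.157). Its groups overlapped through shPpp1r17 library 1. Ppp1r12c had 22.0, 21.4, 22.9 and 25 CPM in shPpp1r17 libraries, against 21.2, 18.9, 19.5 and 17.7 CPM in shfLuc libraries (0.24, SE 0.10, adjusted p = 0.164). Its groups did not overlap. Ppp1r16b (TIMAP), an endothelial member that is also present in neurons, had 209, 217, 215 and 179 CPM in shPpp1r17 libraries, against 151, 155, 172 and 241 CPM in shfLuc libraries (0.19, adjusted p = 0.429). A single library, shfLuc 4, lay above all of the shPpp1r17 values.

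The neurabins are scaffolds that bind actin and hold PP1 in dendritic spines. Ppp1r9a (neurabin-1) had 223, 199, 175 and 202 CPM in shPpp1r17 libraries, against 261, 258, 229.7 and 223 CPM in shfLuc libraries, so that the groups met at shPpp1r17 library 1 and shfLuc library 4 (log2 fold change -0.28, SE 0.09, edgeR adjusted p = 0.0717; past the threshold in 4 of 20 alternatives). Ppp1r9b (spinophilin) had 43.7, 39.3, 37.5 and 43.9 CPM in shPpp1r17 libraries, against 40.7, 41.3, 41.5 and 42.4 CPM in shfLuc libraries (-0.01, adjusted p = 0.951). Ppp1r18 (phostensin), an actin-binding PP1 partner abundant in blood leukocytes, had 2.23, 3.12, 3.32 and 1.79 CPM in shPpp1r17 libraries, against 0.519, 2.81, 0.897 and 1.02 CPM in shfLuc libraries (0.99, SE 0.45, adjusted p = 0.21). Its second highest fold change in the family came with a wide error and with shfLuc library 2 inside the shPpp1r17 range.

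PP1 inhibitors are the closest functional relatives of Ppp1r17, and 0 of the 6 tested passed in edgeR (0 at an unadjusted p under 0.05, and 0 in DESeq2). Ppp1r11 had 253, 255, 260.0 and 265 CPM in shPpp1r17 libraries, against 242, 254, 227 and 248 CPM in shfLuc libraries (log2 fold change 0.09, edgeR adjusted p = 0.436). The direction of this difference turned in the length and GC adjusted fit (-0.10). Ppp1r1a (inhibitor-1), which like Ppp1r17 inhibits only once phosphorylated, had 13.3, 8.79, 12.2 and 15.9 CPM in shPpp1r17 libraries, against 16.9, 14.3, 15.1 and 16.6 CPM in shfLuc libraries (-0.32, SE 0.16, adjusted p = 0.253). It was called lower in edgeR without shPpp1r17 libraries 1 and 4 (-0.58, adjusted p = 0.0313) and had -0.11 (adjusted p = 0.787) without libraries 2 and 3. Ppp1r1b (DARPP-32), the dopamine-regulated inhibitor of striatal neurons, was low here, with 2.15, 1.56, 1.28 and 1.35 CPM in shPpp1r17 libraries, against 1.34, 2.09, 2.44 and 2.48 CPM in shfLuc libraries (-0.40, SE 0.31, adjusted p = 0.486). Ppp1r2 (inhibitor-2) had 57.9, 47.6, 53.1 and 64.1 CPM in shPpp1r17 libraries, against 63.6, 56.4, 58.7 and 63.7 CPM in shfLuc libraries (-0.12, adjusted p = 0.491). Reads of Ppp1r2 can be shared with its pseudogene copies, none of which exceeded 0.951 CPM.

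Ppp1r15a (GADD34) and Ppp1r15b (CReP) direct PP1 to the translation factor eIF2 alpha, the first when cells are stressed and the second all the time. Ppp1r15a had 17.3, 20.5, 16 and 19.5 CPM in shPpp1r17 libraries, against 9.85, 16.3, 14.1 and 18.4 CPM in shfLuc libraries (log2 fold change 0.32, SE 0.17, edgeR adjusted p = 0.279), and Ppp1r15b had a log2 fold change of -0.15 (0.441). Glycogen-targeting subunits bring PP1 to glycogen synthase. Of 7, 5 were tested and 0 passed in edgeR (0 at an unadjusted p under 0.05, and 0 in DESeq2), with log2 fold changes of -0.08 for Ppp1r3c, the subunit known as PTG, and 0.54 (SE 0.29, adjusted p = 0.298) for Ppp1r3e.

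**Figure D5:**
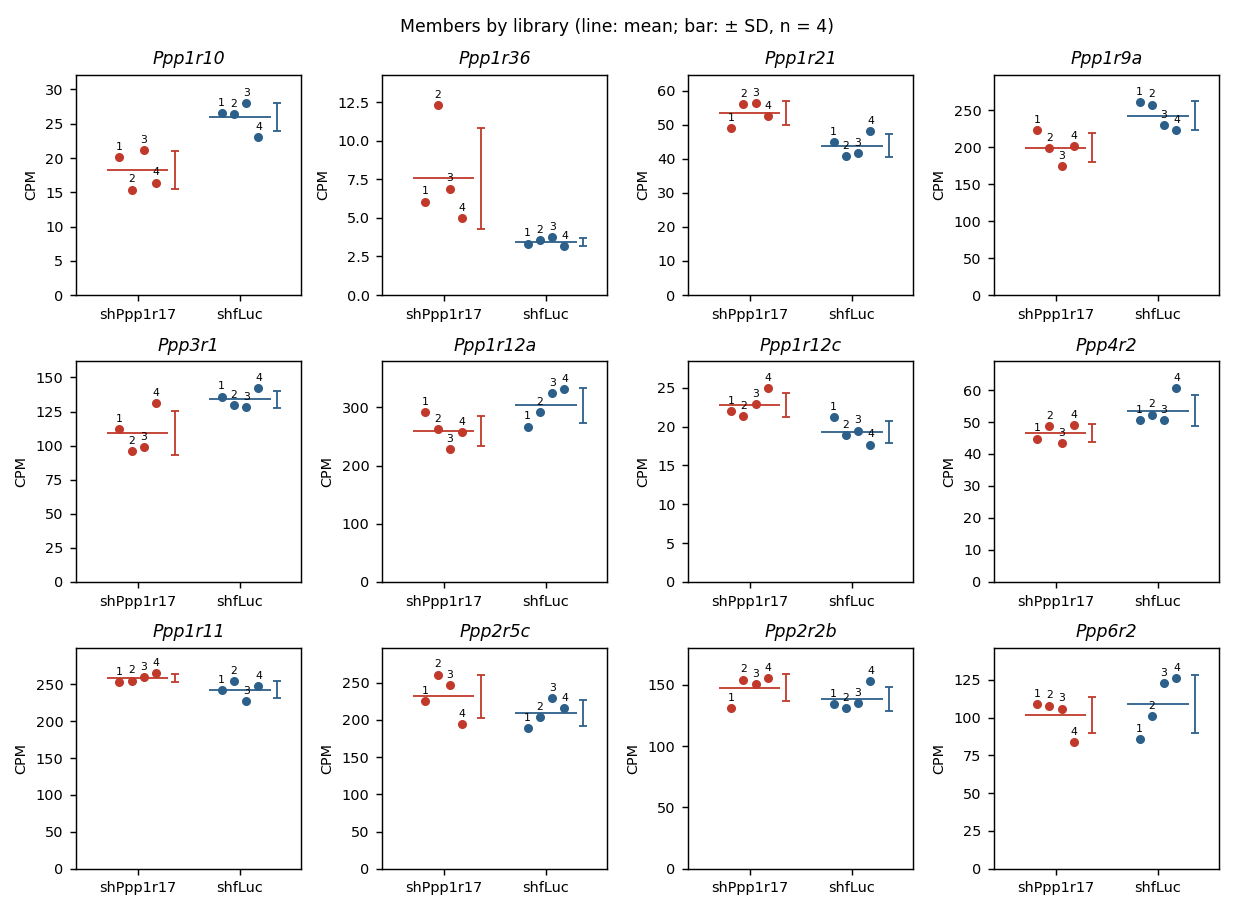
CPM by library for 12 members, with shPpp1r17 left of shfLuc and libraries numbered 1 to 4; lines are means and bars SD (n = 4). Groups lie apart for Ppp1r10, Ppp1r36, Ppp1r21, Ppp1r12c and Ppp4r2, and overlap for the other 7.

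None of the 12 tested PP2A regulatory subunits passed the edgeR test (0 at an unadjusted p under 0.05, and 0 in DESeq2). Their log2 fold changes ran from -0.17 for Ppp2r2d to 0.19 for Ppp2r3c. Ppp2r5c, a B prime subunit, had 225, 261, 247 and 194 CPM in shPpp1r17 libraries, against 189, 204, 229 and 216 CPM in shfLuc libraries (0.15, edgeR adjusted p = 0.393). It was called higher without shPpp1r17 libraries 1 and 4 (0.28, adjusted p = 0.0496) and had -0.002 (adjusted p = 0.996) without libraries 2 and 3. Ppp2r5d, a B prime subunit mutated in a human neurodevelopmental disorder, had 61.9, 63.8, 70.7 and 74.3 CPM in shPpp1r17 libraries, against 69.3, 76.9, 70.5 and 62.7 CPM in shfLuc libraries (-0.04, 0.81). Ppp2r2b, the brain-enriched B subunit, had 131, 154, 150.4 and 155 CPM in shPpp1r17 libraries, against 134, 131, 135 and 153 CPM in shfLuc libraries (0.09, 0.547). The groups of all 3 overlapped. The other B subunits Ppp2r2a and Ppp2r2c had log2 fold changes of 0.07 and 0.03.

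Ppp3r1, the calcium-binding regulatory subunit that calcineurin needs for activity, had 112, 95.7, 99.0 and 131 CPM in shPpp1r17 libraries, against 136, 129.8, 128 and 142 CPM in shfLuc libraries. Libraries 1 to 3 of shPpp1r17 lay below all shfLuc values, and library 4 was inside their range (log2 fold change -0.29, SE 0.10, edgeR adjusted p = 0.0976). It passed in 4 of 20 alternatives, among them DESeq2 and the fit without shPpp1r17 library 4. Ppp3r1 overlaps Wdr92 (mean 25.2 CPM) on the same strand, so its reads could be split between them. Ppp3r2, the testis form, had under 1 TPM.

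PP4 acts with its R2 and R3 subunits in DNA repair and in the nucleus. Ppp4r2 had 44.8, 48.7, 43.4 and 49.1 CPM in shPpp1r17 libraries, against 50.5, 52.3, 50.6 and 60.7 CPM in shfLuc libraries (log2 fold change -0.20, SE 0.08, edgeR adjusted p = 0.173). Ppp4r3b had 43.3, 43.3, 43.4 and 41.4 CPM in shPpp1r17 libraries, against 47.2, 45.8, 44.2 and 45.7 CPM in shfLuc libraries (-0.09, SE 0.07, adjusted p = 0.465). Both pairs of groups lay apart by little, and neither gene passed. Ppp4r3a, the paralog of Ppp4r3b, had a log2 fold change of -0.03 (adjusted p = 0.891). Ppp6r2, the leading PP6 subunit, had 109, 108, 106 and 83.6 CPM in shPpp1r17 libraries, against 85.6, 101, 123 and 126 CPM in shfLuc libraries (-0.10, adjusted p = 0.676), with wide overlap.

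The deposited transcript length of a gene, weighted by the abundance of its transcripts, gave a readout of transcript use apart from the level. At an adjusted p under 0.05 in limma, 0 of 50 members with enough reads differed, as did 0.0165% of 12108 genes. At an unadjusted p under 0.05 there were 4 members (8%), against 6.71% of genes: Ppp1r21, Ppp1r10, Ppp1r42 and Ppp2r2b. Ppp1r21 averaged over shorter transcripts, with 1747, 1753, 1688 and 1678 bases in shPpp1r17 libraries, against 1895, 1839, 1890 and 1783 bases in shfLuc libraries (log2 difference -0.11, SE 0.03, limma adjusted p = 0.482). Its groups did not overlap. Ppp1r10 had 2487, 3092, 2999 and 2861 bases in shPpp1r17 libraries, against 3091, 3086, 3393 and 3389 bases in shfLuc libraries, which overlapped (-0.18, SE 0.07, adjusted p = 0.722).

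Genes around the family that share its phosphatases were examined as lists. Of 31 other regulators of these phosphatases whose symbols do not start with Ppp, 29 were tested. In these, 1 was called higher and 2 lower (10.3%, against 6.06% of all genes). At an unadjusted p under 0.05 in edgeR there were 6 of the 29, against 22.6% of all genes. The median log2 fold change of the 29 was -0.02. Igbp1 (alpha4), which binds and stabilizes PP2A-type catalytic subunits, rose to 30.9, 39.3, 38.2 and 35.8 CPM in shPpp1r17 libraries, against 29.4, 23.2, 26.2 and 27.4 CPM in shfLuc libraries (log2 fold change 0.44, SE 0.10, edgeR adjusted p = 0.0272). Phactr1, which binds PP1 and actin, fell to 140, 118, 109 and 132 CPM in shPpp1r17 libraries, against 156, 165, 163 and 156 CPM in shfLuc libraries (-0.36, SE 0.08, adjusted p = 0.0269). Rif1, which brings PP1 to replication origins, fell to 63.3, 52.8, 55.4 and 52.6 CPM in shPpp1r17 libraries, against 71.0, 65.7, 70.0 and 71.7 CPM in shfLuc libraries (-0.31, SE 0.08, adjusted p = 0.0377). Groups lay apart for each of the 3 genes. Of the 13 catalytic and scaffold subunits, all tested, 1 was called higher and 0 lower (7.69%, against 6.06% of all genes). Their median log2 fold change was 0.10. At an unadjusted p under 0.05 in edgeR there were 4 of the 13, against 22.6% of all genes. The PP2A scaffold Ppp2r1b rose to 20.2, 21.6, 21.9 and 15.2 CPM in shPpp1r17 libraries, against 12.2, 13.8, 11.5 and 15.1 CPM in shfLuc libraries (0.58, SE 0.14, adjusted p = 0.0291), with libraries 4 of both groups nearly level. The PP2A catalytic gene Ppp2ca (0.25, adjusted p = 0.0647) and the PP1 catalytic gene Ppp1cc (0.30, 0.0733) did not pass in edgeR. Their groups did not overlap, as for 13.9% of all tested genes. Both were called higher in DESeq2, where 11.1% of all genes were called. Ppp2ca was also called with at least 50 reads in 4 libraries, with the length and GC offset, and without shPpp1r17 library 1, alone or with library 4. Neither gene was called in the other alternatives. The 3 calls among the other regulators were lost without shPpp1r17 library 2 or 3 or shfLuc library 2, 3 or 4, and that of Rif1 also without shPpp1r17 library 4 or shfLuc library 1. The Ppp2r1b call was lost without any single library other than shPpp1r17 libraries 1 and 4.

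Sequence in the 3' untranslated regions (UTRs) was described because genes called lower in these libraries often carried the letters CTCTGAT or TCTGATA, overlapping words that join as CTCTGATA. CTCTGAT led the ranking of words of 7 bases by their association with lower fold changes here. TCTGATA was the best-ranked word that overlaps it when shifted by a base. Of 16384 possible words, those found in too few or too many genes were not ranked. Both words were thus chosen on the same values and give no independent support. The transcript strand alone was searched, in the longest annotated 3' UTR of each gene, which need not be the form present in these libraries. Either word was found in 6 of 55 members searched (10.9%), in 18.7% of 14254 genes searched, and in 55% of the 436 genes searched that were called lower. Ppp1r10, the member called lower, had no match. Sites of the 6 members are shown because they are the family's whole share of that pattern; 29 bases are given 5′ to 3′ from the GENCODE M21 transcripts (GRCm38), with the match in capitals.
Ppp1r9a (chromosome 6): taggacaggaaTCTGATAggatagaggtc
Ppp1r12a (chromosome 10): gggggcatcaaCTCTGATcccaccaccat
Ppp1r13b (chromosome 12): agaagtcatgaCTCTGATccccgaccgct
Ppp1r7 (chromosome 1): aggttgtagaaTCTGATAgacttgagctg
Ppp1r2 (chromosome 16), first site: gtcttaacctgCTCTGATttcctgctccc
Ppp1r2, middle site: tcgctgtccttCTCTGATtgacagcttgg
Ppp1r2, last site: tccagcccctcCTCTGATtgtatactcgg
Ppp2r2a (chromosome 14): taaacaaaatgTCTGATAattcttaatgg

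None of the 8 sites held the joined 8-base word, and Ppp1r2 alone held more than 1 site. The log2 fold changes of these genes were -0.28 for Ppp1r9a, -0.23 for Ppp1r12a, -0.21 for Ppp1r13b, -0.15 for Ppp1r7, -0.12 for Ppp1r2 and 0.07 for Ppp2r2a, and none passed the test. Their median was -0.18, against 0.03 for members without a match, while over all genes searched it was -0.12 with a match and 0.02 without. Ppp1r13b (ASPP1), which binds PP1 and p53, had 33.8, 32.8, 30.8 and 36.8 CPM in shPpp1r17 libraries, against 36.5, 37.8, 40.3 and 41.0 CPM in shfLuc libraries (edgeR adjusted p = 0.148). The Ppp1r7 site lay at base 2557 of a searched UTR of 8423 bases. The weighted transcript length of Ppp1r7 was only 2333 to 2803 bases, so many of its transcripts may lack the site. A match is a description of letters and not a site known to act in these cells.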

How the data were processed

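Per the labels' protocols, DMH RNA was extracted with a PicoPure kit, meant for very little tissue, and libraries were built with SMARTer chemistry. For each Ensembl gene the authors deposited estimated counts, TPM, length and effective length, per the file headers. Tools named without versions in the submitters' processing notes are bcl2fastq, DRAGEN, edgeR and limma; aligner settings, genome build, annotation and strand use were not given in the sources used here. Overlapping genes on either strand may share reads: Mea1 (164 CPM) overlaps Ppp2r5d, and Zfyve21 (22.5 CPM) overlaps Ppp1r13b. Symbols matched 55141 of 55487 identifiers; coordinates are from GENCODE M21.

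Estimated counts as deposited (up to 10.1% of a library's values not whole) were rounded and fitted with edgeR 4.0.16 in R 4.3.3: expression filter (minimum count 10, total 15), TMM factors, group as the single term, quasi-likelihood F test, Benjamini-Hochberg adjustment over 17339 genes, threshold 0.05. Limma 3.58.1 tested log2 of the deposited length over 12108 genes with at least 10 reads in every library. CPM are TMM-scaled and serve for comparing groups, and the deposited TPM for comparing genes. Alternatives used DESeq2 1.42.0, voom, other scalings and filters, log2(TPM + 1), a length and GC offset, and left-out libraries. Scripts were tested on simulated data. Read counts without molecular identifiers are not independent molecules.

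The members, the gene lists and the tests were chosen with earlier results of these data known. Members named by rule were those past the threshold, those whose groups did not overlap, and the most abundant of each phosphatase family; another 16 (Ppp1r9a, Ppp1r9b, Ppp1r1a, Ppp1r1b, Ppp1r2, Ppp1r13b, Ppp1r14b, Ppp1r15a, Ppp1r15b, Ppp1r16b, Ppp1r18, Ppp1r3c, Ppp1r3e, Ppp1r42, Ppp2r2c and Ppp2r2a) and those given by fold change alone were named after their values were seen.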

Additional observations from a re-analysis of the deposited data

Results flagged for a closer look

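Within a group of 4 libraries, 1 library stood far from the other 3 in 3 of 62 groups examined (31 named members in 2 groups), where chance gives about 1 in 20. Ppp4r3b had 41.4 CPM in shPpp1r17 library 4, against 43.3 to 43.4 CPM in the other shPpp1r17 libraries. Ppp6r2 had 83.6 CPM in shPpp1r17 library 4, against 106 to 109 CPM in the other 3. Ppp1r14b, a PP1 inhibitor, had 6.06 CPM in shPpp1r17 library 3, against 4.47 to 4.65 CPM in the other 3.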

How the results depend on the processing

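The count of members called, 2 in the reported fit, was 5 with DESeq2, 1 with voom, 1 on log2(TPM + 1), 7 without shPpp1r17 libraries 1 and 4 and 0 without shPpp1r17 libraries 2 and 3 (5 at unadjusted p under 0.05), and it ran from 0 to 4 with 1 library left out (6 to 12 at unadjusted p under 0.05). Other regulators, 3 in the reported fit, came to 5 without shPpp1r17 libraries 1 and 4, 0 without 2 and 3, and 0 to 4 with 1 library left out. Catalytic and scaffold subunits, 1 in the reported fit, came to 2 with at least 50 reads in 4 libraries, 3 with DESeq2, 2 with the length and GC offset, 0 on log2(TPM + 1), 2 without shPpp1r17 libraries 1 and 4, 0 without 2 and 3, and 0 to 2 with 1 library left out. Over all genes, the share called was 11.1% with DESeq2, 5.78% with voom and 4.6% on log2(TPM + 1). It was 8.96% with at least 50 reads in 4 libraries and 4.64% with the length and GC offset. Without shPpp1r17 libraries 1 and 4 it was 14.8%, and without libraries 2 and 3 it was 0.205%. Deviations from the group means correlated little between libraries of equal replicate number (-0.0116, 0.0354, 0.00569 and 0.116). The best match had the same number for replicates 2 and 4 and another number for replicates 1 and 3. Such values cannot show whether equal numbers shared a batch. With the replicate block 2 members, 0 other regulators and 0 catalytic or scaffold subunits were called. No member differed in length under any alternative in limma (1 to 5 at unadjusted p under 0.05 with 1 library left out).

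Of 698 values of 35 named genes over 20 alternatives, 616 kept direction and side of the threshold, 47 lost the call, 14 gained it and 21 changed sign, all near 0; the cause was not tested. With the length and GC offset log2 fold changes were -0.10 for Ppp1r11, 0.03 for Ppp1r9b and -0.10 for Ppp1r14b. On log2(TPM + 1) they were -0.0023 for Ppp1r11, -0.07 for Ppp2r2c and -0.06 for Ppp2r2a. Without shPpp1r17 libraries 2 and 3 they were -0.002 for Ppp2r5c, 0.08 for Ppp1r9b, 0.01 for Ppp1r2, -0.05 for Ppp1r14b, 0.04 for Ppp1r3c and -0.08 for Ppp2r2c. With 1 library left out, values ran from -0.09 to 0.0037 for Ppp2r5d, -0.10 to 0.06 for Ppp4r3a, -0.05 to 0.02 for Ppp1r9b, -0.04 to 0.16 for Ppp1r14b and -0.01 to 0.07 for Ppp2r2c. Depth limits the low members: Ppp1r3b, with 2 to 22 reads a library, had an SE larger than its fold change.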
